A study of Mus musculus with 6 samples.

Results

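The transcripts of the mitochondrial genome (MT) were taken as every row of the deposited count table that lies on chromosome MT, which gave 37 of the table's 57180 genes. They comprise 13 protein-coding genes (mRNAs), 2 ribosomal RNAs (rRNAs) and 22 transfer RNAs (tRNAs), with 28 rows on the + strand and 9 on the - strand. The rows were measured by RNA sequencing in inguinal white adipose tissue (iWAT), a fat depot under the skin. The mice were wild type and had been made obese on a high-fat diet in all 6 libraries. The mice behind 3 libraries received recombinant Adissp, a protein secreted by fat cells, at 68 nmol/kg each day for 33 days (ADISSP). The other 3 libraries came from control mice (Control), for which the labels give no treatment, age or sex, and neither age nor sex is given for the treated mice. The series title names Adissp as a candidate treatment for metabolic and heart disease, and the comparison asks what the treatment did to the RNA of this depot.

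Mitochondria keep a small circular DNA that is separate from the chromosomes of the nucleus. Each strand is copied into a long RNA, and the tRNAs that lie between the other genes are cut out, which frees the mRNAs and rRNAs. The mRNAs encode subunits of the respiratory complexes I, III, IV and V, whose remaining subunits come from nuclear genes, and the rRNAs and tRNAs serve the ribosomes inside the organelle. Heat-producing fat cells are known for their dense mitochondria.

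Library totals were 14336110, 10357930 and 15658428 counts in ADISSP 1, 2 and 3 and 15228295, 15400072 and 13966685 counts in Control 1, 2 and 3, and 17320 genes had enough counts to be tested. Markers of other cell types moved with the groups. The 7 brown fat cell markers, Ucp1 among them, summed to 4137 to 4890 CPM (counts per 1000000 of the scaled library total) in ADISSP and 116 to 200.3 CPM in Control, and 7 of 7 rose. The 8 B cell markers summed to 5.77 to 11.6 CPM in ADISSP and 113 to 574 CPM in Control. The 5 macrophage markers summed to 253 to 349 CPM in ADISSP and 589 to 679 CPM in Control. All of both lists were lower. Over all genes tested, 18.5% rose and 16.5% fell. Without ADISSP 1, 6 of 8 B cell markers were lower (9.17% of all genes lower), and without ADISSP 3, 7 of 8 (9.74%). The 6 fat cell markers were abundant in all libraries, at 16576 to 18786 CPM in ADISSP and 11992 to 16170.2 CPM in Control. Of them, 2 rose and 0 fell. Adipoq and Plin1 had log2 fold changes of 0.35 (SE 0.15) and 0.38 (SE 0.15) and Lep -0.39 (SE 0.21), and none of these passed. With library totals in place of TMM factors, 1 rose and 1 fell, where 10.2% of all genes rose and 38.0% fell. Control 3 stood apart from the other controls in skeletal muscle markers: the 10 genes summed to 9594 to 10747 CPM in ADISSP, against 191, 253 and 21459 CPM in Control 1, 2 and 3. B cell markers were lower in Control 3 as well, at 478, 574 and 113 CPM in Control 1, 2 and 3. Brown fat cell markers were higher in it, at 116, 119 and 200.3 CPM in Control 1, 2 and 3. No marker of these lists was at 0 throughout a group. The part of these cell types in the results below was not tested, and in bulk tissue more cells of a type and more RNA per cell cannot be told apart.

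Several mitochondrial genes have copies in the nucleus, and this bears on the values of those genes below, because a read from such a copy and one from the organelle can be the same letters. The MT sequences (GENCODE M21 transcripts, all 37 with the same start, end and strand as the deposited rows) were searched against all other transcripts of that release. The start of mt-Co2, a subunit of complex IV, and of its nuclear copy Gm28661 on chromosome 1 are shown because the rows cannot be told apart over these 60 bases; capitals would mark bases of the copy that differ, and there are none.
mt-Co2: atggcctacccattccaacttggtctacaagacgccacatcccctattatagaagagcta
Gm28661: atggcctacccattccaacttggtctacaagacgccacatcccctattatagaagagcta
The next pair shows a stretch of mt-Co1, the catalytic subunit of complex IV, in which Gm13340 on chromosome 2 differs most from it, with the differing bases of the copy in capitals.
mt-Co1: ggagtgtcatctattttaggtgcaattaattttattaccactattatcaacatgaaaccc
Gm13340: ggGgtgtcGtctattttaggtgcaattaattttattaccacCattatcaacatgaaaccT
A more diverged copy is shown for mt-Cytb, the cytochrome b of complex III, beside Gm11410 on chromosome 4, again where they differ most.
mt-Cytb: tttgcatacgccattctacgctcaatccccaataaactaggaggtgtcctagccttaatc
Gm11410: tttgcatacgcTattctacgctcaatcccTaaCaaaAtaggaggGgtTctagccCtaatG

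The copies on chromosome 1 lie side by side (GRCm39, 24650616 to 24655278, - strand), 7 pseudogene rows within 4663 bases. They match mt-Nd4 over 876 bases (Gm28439), mt-Nd4l over 294 (Gm10222), mt-Co3 over 783 (Gm28437), mt-Atp6 over 678 (Gm10925) and mt-Co2 over 681 (Gm28661), all at 100% identity. The remaining rows match mt-Nd3 at 99.7% with 1 mismatch (Gm28438) and the last 483 bases of mt-Co1 at 99.8% (Gm29216). Gm10925 and Gm28661 are 233 bases apart, the same distance as between the matched parts of mt-Co2 and mt-Atp6 on chromosome MT, where mt-Atp8 lies. The stretch with the most counts, on chromosome 2 (22477303 to 22480545, - strand), holds 3 rows that match mt-Co2 at 95.9% (Gm13341), all 1545 bases of mt-Co1 at 97.6% with 37 mismatches (Gm13340) and 510 bases of mt-Nd2 at 96.7% (Gm13339). The chromosome 2 stretch follows from the naming rule, whereas rows on other chromosomes were named after their values were seen.

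Levels per length separated the mRNAs by these copies. In 5 mRNAs (mt-Co2, mt-Atp6, mt-Co3, mt-Nd3 and mt-Nd4l) a nuclear transcript matched at least 98% of the gene at 99% identity or more, a limit set after the data were seen. Their mean FPKM (counts scaled by gene length and library total) over the 6 libraries was 12.3 to 77.3, with a median of 23.3. In the 7 others, without mt-Atp8, it was 1205 to 15498, with a median of 5278. The ranges did not overlap. The share of 100-base windows found letter for letter in a nuclear transcript was 97.6% to 99.9% in the 5 mRNAs, 60.8% in mt-Nd4, 30.8% in mt-Co1 and 3.19% in mt-Nd2, and 0 in mt-Nd1, mt-Nd5, mt-Nd6, mt-Cytb and mt-Atp8. With 50-base windows it was 62.2% in mt-Nd4, 51.1% in mt-Co1, 8.19% in mt-Nd2 and 7.61% in mt-Nd5. Copies outside annotated transcripts were not searched, and so the 233 bases between Gm10925 and Gm28661, at the place of mt-Atp8, were not compared. mt-Atp8, which encodes a small subunit of complex V, was lowest at 0.960 FPKM and shares 43 bases with mt-Atp6. No source used here states how reads with several equal matches were counted, and the part of the copies in these levels was not tested.

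**Figure D1:**
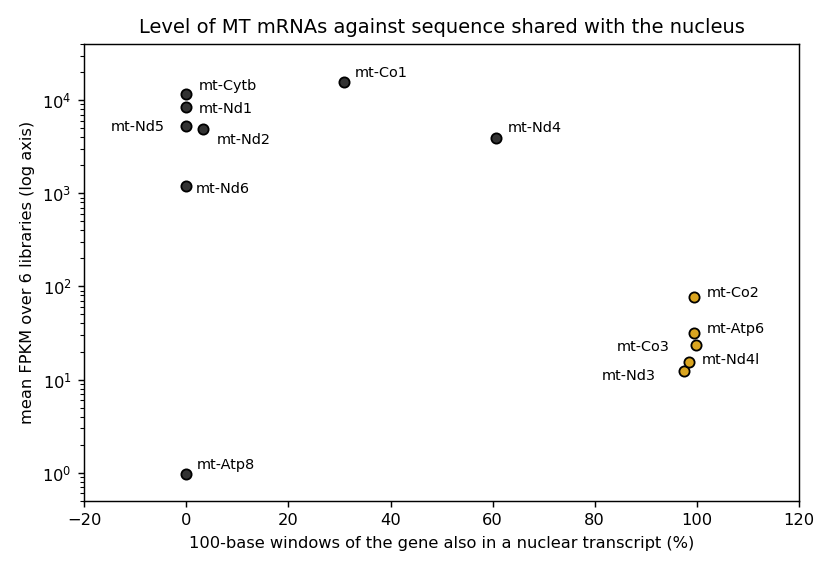
Mean FPKM over the 6 libraries (log axis) against the percent of 100-base windows of each MT mRNA that also occur in a nuclear transcript; each point is a gene, and gold points are the 5 mRNAs with a near-identical copy of at least 98% of their length. The gold points lie at 12.3 to 77.3 FPKM, and every other gene but mt-Atp8 lies at 1205 FPKM or above.

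The order of the deposited levels among the 7 abundant mRNAs was the same in both groups except for its middle. mt-Co1 led at 21910.3 FPKM in ADISSP and 9085 FPKM in Control, followed by mt-Cytb at 17252 FPKM in ADISSP and 6063 FPKM in Control and mt-Nd1 at 12074 FPKM in ADISSP and 4575 FPKM in Control. mt-Nd5 had 7909 FPKM in ADISSP and 2646 FPKM in Control, and mt-Nd2 had 6831 FPKM in ADISSP and 2843 FPKM in Control, so that these neighbours changed places. mt-Nd4 came next at 5838 FPKM in ADISSP and 2064 FPKM in Control. mt-Nd6, the only mRNA on the - strand, was lowest of the 7 at 1821 FPKM in ADISSP and 590.03 FPKM in Control. By single libraries, mt-Nd5 and mt-Nd2 overlapped in both groups, with 6875 to 9022 FPKM for mt-Nd5 and 6119 to 7827 FPKM for mt-Nd2 in ADISSP, and 2246 to 3008 FPKM for mt-Nd5 and 2556 to 3398 FPKM for mt-Nd2 in Control. mt-Nd4 also overlapped with mt-Nd2 and mt-Nd5 in ADISSP and with mt-Nd5 in Control, and mt-Nd1 with mt-Cytb in Control, whereas mt-Co1 stood above every other gene in both groups. The order depends on whether reads shared with nuclear copies were counted. Had none been counted, mt-Nd4 outside its copied windows would stand at 14875 FPKM in ADISSP and 5258 FPKM in Control, above mt-Nd1. On that assumption, mt-Co1 would stay first at 31682 FPKM in ADISSP and 13137 FPKM in Control. This was not tested.

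**Figure D2:**
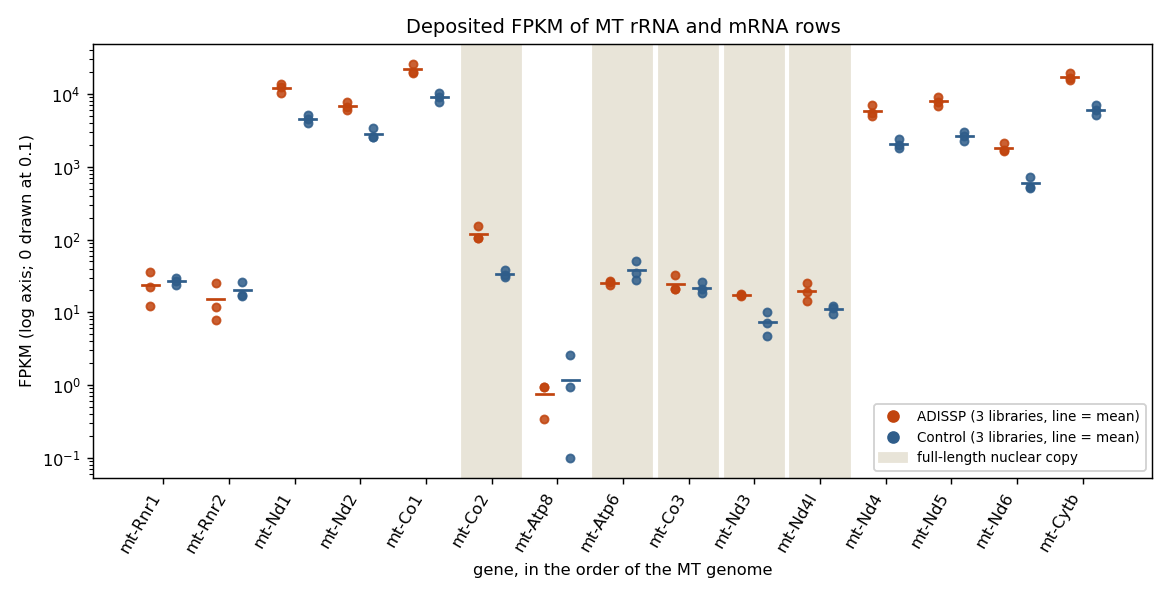
Deposited FPKM (log axis) of the MT mRNAs and rRNAs in genome order, with a point per library, ADISSP left of Control, lines at the group means, 0 drawn at 0.1, and shading on the 5 genes with a near-identical nuclear copy. mt-Co1 is highest at 19254 to 26143 FPKM in ADISSP and 7817 to 10459 FPKM in Control, and mt-Atp8 is lowest.

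Mitochondrial transcripts took up a larger part of the library counts in ADISSP, and nearly all of that part was mRNA. Ribosomal RNA had been removed from these libraries, so the mRNA part does not measure the make-up of mitochondrial RNA in the tissue. The 37 rows held 9.22%, 11.1% and 8.43% of the counts in ADISSP 1, 2 and 3, against 4.20%, 3.13% and 3.58% in Control 1, 2 and 3. The groups did not overlap, and the mean share was 9.58% ± 1.37 in ADISSP and 3.64% ± 0.538 in Control (SD, n = 3 each), a ratio of 2.63. The exact two-sided permutation test gave p = 0.1, the smallest that 3 against 3 libraries allow. The widest 95% exact (Clopper-Pearson) interval of a library's share spanned 0.0383 percentage points, so the spread between libraries far exceeded counting error. Control 3, with the most muscle marker RNA, lay inside the range of the other controls, but it differed from them in other markers too. The part of muscle RNA in the share was not tested. The 7 abundant mRNAs made up nearly the whole, at 9.21%, 11.1% and 8.42% of the library in ADISSP 1, 2 and 3 and 4.19%, 3.12% and 3.57% in Control 1, 2 and 3.

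The rRNA rows did not follow the mRNA rows. They held 569, 768 and 382 counts in ADISSP 1, 2 and 3, against 1045, 762 and 746 counts in Control 1, 2 and 3, in libraries from which ribosomal RNA had been removed. As a share of the library this was 0.00461% ± 0.00255 in ADISSP and 0.00572% ± 0.00101 in Control (SD, n = 3 each), the groups overlapped, and the exact permutation p was 0.5. The tRNA rows held 308, 340 and 420 counts in ADISSP and 273, 191 and 179 counts in Control, and their share of the library was 0.00270% ± 0.000567 in ADISSP and 0.00144% ± 0.000308 in Control (SD, n = 3 each; no overlap, exact permutation p = 0.1). Nuclear rRNA rows, a gauge of the depletion, held 0.125%, 0.162% and 0.0987% in ADISSP and 0.132%, 0.123% and 0.141% in Control (exact permutation p = 0.9).

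**Figure D3:**
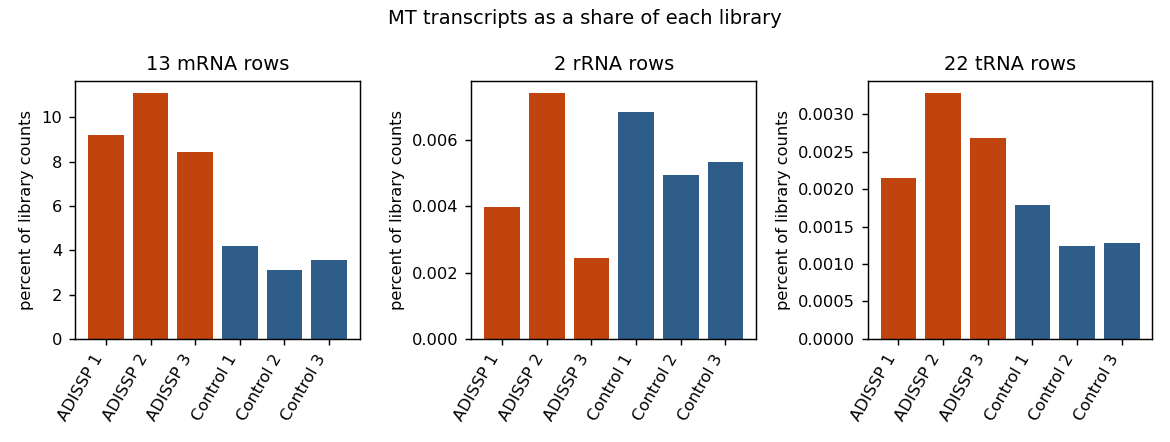
Percent of each library's counts on MT mRNA, rRNA and tRNA rows, with a bar for each library, ADISSP left of Control, and an axis of its own for each kind of RNA. The mRNA share is higher in all 3 ADISSP libraries, the rRNA shares overlap, and the tRNA shares do not.

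Gene by gene, 19 of the 37 rows could be tested with edgeR's quasi-likelihood test over all 17320 genes (Benjamini-Hochberg adjusted p under 0.05, 3 against 3 libraries). Of them 12 rose and 0 fell: 10 of 12 tested mRNAs, 0 of 2 rRNAs and 2 of 5 tRNAs. Over all genes tested, 18.5% rose and 16.5% fell. The median log2 fold change was 1.62 over the 19 rows and -0.01 over all genes. No MT row was lower at an unadjusted p under 0.05 either, and DESeq2 gave the same counts of 12 higher and 0 lower, where it called 17.5% of all genes higher and 17.2% lower. All 3 ADISSP libraries exceeded all 3 Control libraries in CPM in 14 of the 19 tested rows, against 26.0% of all genes tested. With Control 3 as the only control, 11 of 22 rows rose and 0 fell, where 10.3% of all genes rose and 7.12% fell and mt-Nd4l was the row lost. With 1 control library the spread in that fit comes only from the ADISSP libraries and is assumed to hold for controls. The 18 untested rows were mt-Atp8 and 17 tRNAs, of which 7 had no count in any library.

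Complex I takes electrons from NADH, and 7 of its subunits are encoded on MT. All 7 mRNAs rose. mt-Nd1 stood at 13440.0, 14797 and 10943 CPM in ADISSP 1, 2 and 3, against 4244, 3276 and 4128 CPM in Control 1, 2 and 3, so the lowest treated library had over 2 times the CPM of the highest control (log2 fold change 1.75, SE 0.17, adjusted p = 0.000126). mt-Nd5, which encodes a large membrane subunit, had 16189, 18793 and 13930.4 CPM in ADISSP and 4727, 3466 and 4661 CPM in Control (log2 fold change 1.93, SE 0.18, adjusted p = 0.000101). mt-Nd6 had 964, 1262 and 977 CPM in ADISSP and 328, 227 and 257 CPM in Control (log2 fold change 1.98, SE 0.17, adjusted p = 6.73e-05). The changes of mt-Nd5 and mt-Nd6 differed by less than their SE, and without Control 3 they were 1.99 and 1.94. The other abundant members, mt-Nd2 and mt-Nd4, changed by 1.62 (SE 0.17) and 1.85 (SE 0.19) on the log2 scale. The members with near-identical nuclear copies rested on far fewer counts. mt-Nd3 had 83, 63 and 98 counts in ADISSP and 53, 25 and 35 counts in Control, and its log2 fold change was 1.60 (SE 0.30, adjusted p = 0.00393). mt-Nd4l had 82, 77 and 67 counts in ADISSP and 56, 43 and 48 counts in Control, with the smallest change of the 7 at 1.16 (SE 0.28, adjusted p = 0.0123).

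mt-Cytb is the only MT-encoded subunit of complex III, which passes electrons to cytochrome c. It had 21827, 25060.3 and 20004 CPM in ADISSP 1, 2 and 3, against 6948, 4910.04 and 6609 CPM in Control 1, 2 and 3 (log2 fold change 1.86, SE 0.18, adjusted p = 0.000115). The groups were far apart, and Control 3 lay between the other controls.

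Complex IV, which reduces oxygen, takes 3 subunits from MT, and they differed from each other. mt-Co1, the most counted MT gene, had 35610 CPM in ADISSP 1, 46125 in ADISSP 2 and 33047 in ADISSP 3, against 13923, 10218 and 13206 CPM in Control 1, 2 and 3 (log2 fold change 1.62, SE 0.19, adjusted p = 0.000373). mt-Co2, which binds the copper centre that receives the electrons, had 80.3, 119.7 and 80.1 CPM in ADISSP and 22.7, 17.6 and 21.4 CPM in Control (log2 fold change 2.18, SE 0.18, adjusted p = 9.31e-05). mt-Co3 had 18.5, 29.6 and 18.0 CPM in ADISSP, against 17.7, 12.2 and 15.4 CPM in Control, and did not pass (log2 fold change 0.54, SE 0.22, adjusted p = 0.0919). The Co3 groups did not overlap, but the margin was small, and without the filter on low counts mt-Co3 passed (adjusted p = 0.0286; 10.1% of all genes rose in that fit). mt-Co2 and mt-Co3 are both among the genes with near-identical copies.

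Complex V makes ATP, and of its MT subunits mt-Atp6 did not pass in the edgeR fit and mt-Atp8 was too low to be tested. mt-Atp6, part of the proton channel, had 18.1, 20.8 and 19.5 CPM in ADISSP, against 30.1, 15.8 and 22.5 CPM in Control (log2 fold change -0.23, SE 0.22, adjusted p = 0.446). Its groups overlapped, the change ranged over -0.44 to 0.023 with a library left out, and by limma on log2(TPM + 1) it was -0.75 (adjusted p = 0.0226). mt-Atp8 had 1, 2 and 3 counts in ADISSP and 8, 3 and 0 counts in Control. At this depth a difference in mt-Atp8 was not detectable.

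**Figure D4:**
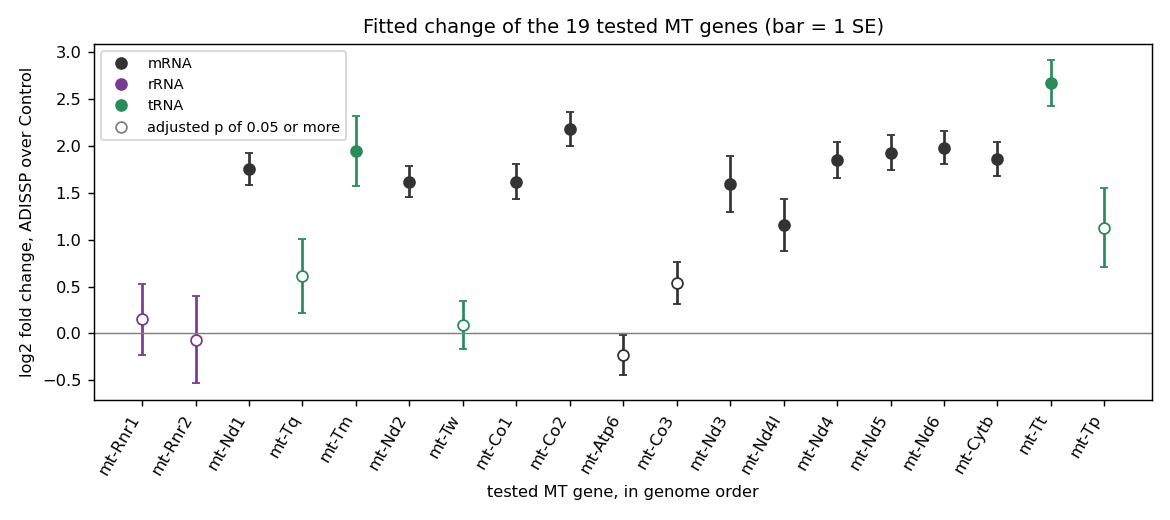
Log2 fold change of ADISSP over Control for the 19 tested MT rows in genome order, with bars of 1 SE, colours for the kind of RNA, and filled points for an adjusted p under 0.05. The 12 that passed lie between 1.16 and 2.67, and the 7 that did not include both rRNAs, mt-Atp6 and mt-Co3.

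Of the 17 pseudogene rows that match an MT gene 15 were tested, of which 9 rose and 0 fell, where 18.5% of all genes tested rose and 16.5% fell. On chromosome 2, Gm13340 had 4941, 5108 and 5450 counts in ADISSP and 3205, 2395 and 2661 counts in Control and rose by 1.44 on the log2 scale (SE 0.19, adjusted p = 0.000819), beside 1.62 for mt-Co1. Gm13341 rose by 1.33 (SE 0.17), beside 2.18 for mt-Co2, and Gm13339 stood at 0.42 (SE 0.35, adjusted p = 0.384), beside 1.62 for mt-Nd2. On chromosome 1, 4 of the 7 rows rose and 0 fell. There Gm28438 rose by 1.72 (SE 0.50), beside 1.60 for mt-Nd3, and Gm29216 by 1.62 (SE 0.24), beside 1.62 for mt-Co1. Gm28661 rose by 1.59 (SE 0.16), Gm28437, the copy of mt-Co3, by 0.92 (SE 0.14), and Gm10925, the copy of mt-Atp6, stood at -0.44 (SE 0.19, adjusted p = 0.112). Gm28439, identical to the first 876 bases of mt-Nd4, stood at -0.13 (SE 0.17, adjusted p = 0.602) while mt-Nd4 itself changed by 1.85. Elsewhere, Gm11407 on chromosome 4 rose by 1.98 (SE 0.23) and Gm4076 on chromosome 13 by 2.27 (SE 0.22), beside 1.93 for mt-Nd5, and Gm11512 on chromosome 11 by 1.84 (SE 0.30), beside 1.62 for mt-Co1. Gm11410, the diverged copy of mt-Cytb, had 16, 15 and 17 counts in ADISSP and 30, 38 and 30 counts in Control and did not pass (log2 fold change -0.51, SE 0.31, adjusted p = 0.232). Whether reads of these rows came from the nucleus or from the organelle was not tested.

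The 2 rRNAs belong to the small (mt-Rnr1) and large (mt-Rnr2) subunit of the mitochondrial ribosome. mt-Rnr1 had 24.0, 38.9 and 13.1 CPM in ADISSP 1, 2 and 3, against 24.1, 19.3 and 24.8 CPM in Control 1, 2 and 3 (log2 fold change 0.15, SE 0.38, adjusted p = 0.792). mt-Rnr2 had 21.04, 45.8 and 14.0 CPM in ADISSP and 35.1, 22.6 and 26.1 CPM in Control (log2 fold change -0.06, SE 0.47, adjusted p = 0.928). Both were high in ADISSP 2 and low in ADISSP 3, so the spread within ADISSP was wider than the difference between the groups, and neither sign held when single libraries were left out. Within each library, rRNA counts per 1000 MT mRNA counts were 0.431, 0.669 and 0.289 in ADISSP and 1.64, 1.58 and 1.49 in Control, with no overlap (exact permutation p = 0.1, the smallest possible). The ratio of mt-Rnr2 to mt-Rnr1 was 1.04 ± 0.150 in ADISSP and 1.23 ± 0.208 in Control (SD, n = 3 each; exact permutation p = 0.5). The rRNA in these libraries is what depletion left over, so these values do not measure the rRNA of the tissue.

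Of the tRNA rows, mt-Tt, which carries threonine, and mt-Tm, which carries methionine, rose. Their sequences are shown whole with that of mt-Tp (proline), which follows mt-Tt on the opposite strand; each reads 5′ to 3′ along its own strand, and no bases are in capitals.
mt-Tt: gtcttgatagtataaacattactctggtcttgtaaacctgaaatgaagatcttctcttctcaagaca
mt-Tp: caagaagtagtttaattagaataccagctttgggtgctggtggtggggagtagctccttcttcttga
mt-Tm: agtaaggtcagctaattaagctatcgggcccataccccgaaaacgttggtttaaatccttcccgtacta
mt-Tt (MT 15289 to 15355, + strand) begins at the base after the end of mt-Cytb, and mt-Tm (3845 to 3913, + strand) ends at the base before mt-Nd2. mt-Tt had 142, 122 and 153 counts in ADISSP, against 34, 42 and 19 counts in Control, the largest change of the 19 rows (log2 fold change 2.67, SE 0.25, adjusted p = 8.83e-05). mt-Tm had 51, 59 and 55 counts in ADISSP and 21, 14 and 26 counts in Control (log2 fold change 1.95, SE 0.37, adjusted p = 0.00453). In both rows every ADISSP library was above every Control library. Whether these reads came from the cut tRNAs or from longer RNA not yet cut was not tested.

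The other tRNA rows did not pass. mt-Tp (15356 to 15422, - strand) had 25, 42 and 35 counts in ADISSP and 34, 17 and 18 counts in Control, with a log2 fold change of 1.13 (SE 0.42, adjusted p = 0.0672) and adjusted p = 0.0301 without the filter on low counts. mt-Tq, for glutamine, stood at 0.61 (SE 0.39, adjusted p = 0.255) and mt-Tw, for tryptophan, at 0.09 (SE 0.26, adjusted p = 0.812). The 10 untested tRNA rows that had a count reached at most 44 counts over the 6 libraries. Counts of mt-Tt per 1000 counts of mt-Cytb were 0.514, 0.537 and 0.543 in ADISSP and 0.277, 0.470 and 0.196 in Control. Counts of mt-Tp per 1000 counts of mt-Nd6, the mRNA on its strand, were 2.05, 3.67 and 2.54 in ADISSP and 5.87, 4.12 and 4.78 in Control. Neither pair of ranges overlapped, and they lay in opposite directions.

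The make-up of the MT mRNA pool also differed slightly. mt-Co1 took 34.1%, 36.4% and 35.3% of the MT mRNA counts in ADISSP and 38.5%, 38.6% and 38.8% in Control. mt-Nd5 took 15.5%, 14.8% and 14.9% in ADISSP and 13.1%, 13.1% and 13.7% in Control, and mt-Cytb took 20.9%, 19.8% and 21.4% in ADISSP and 19.2%, 18.5% and 19.4% in Control. In these 3 genes the groups did not overlap, lower in ADISSP for mt-Co1 and higher for the others. mt-Nd1 took 12.1% ± 0.678 in ADISSP and 12.1% ± 0.323 in Control (SD, n = 3 each; exact permutation p = 1). In all, 9 of the 13 mRNAs had shares that did not overlap, each with an exact permutation p of 0.1 and 0.144 after adjustment over the 13. The shares are parts of a whole and so not independent. In CPM, 49.8% of all genes tested had groups that did not overlap, in either direction. Among the 7 abundant mRNAs the ratio of the mean shares was 0.913 to 1.18, beside a ratio of 2.64 for the share of the whole MT mRNA pool in the library.

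**Figure D5:**
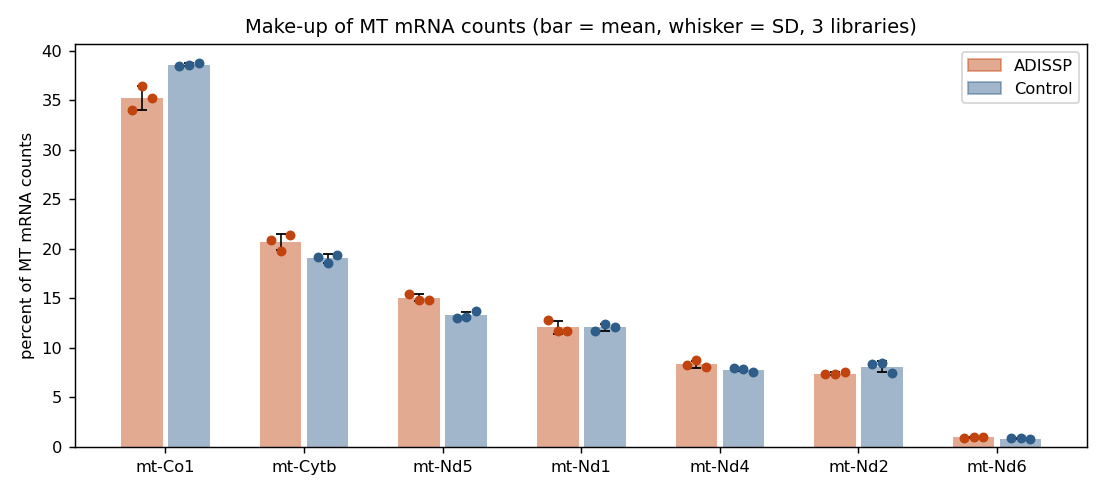
Percent of MT mRNA counts on each of the 7 most counted mRNAs, with bars at the mean and whiskers of 1 SD over 3 libraries, ADISSP left of Control, and a point per library. mt-Co1 lies at 34.1% to 36.4% in ADISSP and 38.5% to 38.8% in Control, whereas mt-Nd1 overlaps.

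With libraries scaled to their summed MT mRNA counts in place of all counts, the fit shows which MT rows departed from the pool. On this scale the median of all genes moved to -1.76, and 1.18% of all genes rose and 90.2% fell. The 7 abundant mRNAs lay between -0.13 and 0.23 and none passed. They held a mean of 99.8% of the MT counts in ADISSP and 99.6% in Control. The scale itself therefore holds them as a set close to the pool, and their not passing is no separate result. mt-Tt rose (0.89, SE 0.39, adjusted p = 0.0235) and 6 rows fell: mt-Rnr1 by 1.65, mt-Rnr2 by 1.86, mt-Atp6 by 1.94, mt-Co3 by 1.22, mt-Tq by 1.13 and mt-Tw by 1.62 on the log2 scale. mt-Co2 stood at 0.42 (SE 0.25, adjusted p = 0.101). The rows below the pool thus held the rRNAs, a pair of tRNAs and a pair of the 5 mRNAs with near-identical copies.

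The - strand carries 1 mRNA, mt-Nd6, whose sequence is rich in G (28.1%) and poor in C (5.97%), against 5.88% to 16.1% G and 22.1% to 30.0% C in the other 12 mRNAs. Its end and the end of mt-Nd5 on the + strand overlap by 14 bases, in capitals here; the last 40 bases of each are shown along their own strands, because reads there cannot be assigned without the strand.
mt-Nd5: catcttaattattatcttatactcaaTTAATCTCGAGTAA
mt-Nd6: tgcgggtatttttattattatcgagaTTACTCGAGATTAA
Counts of mt-Nd6 per 1000 counts of the + strand mRNAs were 9.31, 10.1 and 10.5 in ADISSP and 9.15, 8.64 and 7.59 in Control. The groups did not overlap (exact permutation p = 0.1), but the lowest ADISSP library and the highest Control library differed by little. Of the mRNAs, 3 (mt-Co3, mt-Nd4 and mt-Cytb) have a length that is no multiple of 3 and end in t, where the poly(A) tail is known to complete the stop codon.

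The nuclear genes whose proteins join the MT-encoded ones in the complexes rose as well. Of the nuclear subunits tested, 37 of 37 rose in complex I (median log2 fold change 1.74), 9 of 9 in complex III (2.27), 14 of 16 in complex IV (1.89) and 15 of 16 in complex V (1.49), and 0 fell, also at an unadjusted p under 0.05 and by DESeq2. These medians stand beside 1.68 for the 12 tested MT mRNAs. Among all genes tested, 18.5% rose and 16.5% fell. In complex V, 13 of 16 rose with an ADISSP library, Control 1 or Control 2 left out. There 13 of 16 rose and 1 fell with library totals (10.2% of all genes rose and 38.0% fell). The same counts came from limma on log2(TPM + 1) (5.52% of all genes rose and 41.3% fell). Against Control 3 alone, complex IV subunits ranged from -0.94 to 3.89 and complex V subunits from -0.58 to 1.88. Uqcrc2, a core protein of complex III, had 602, 605 and 537 CPM in ADISSP and 124, 107 and 132 CPM in Control (log2 fold change 2.27, SE 0.12, adjusted p = 9.48e-06). Cox5a, of complex IV, had 251, 251 and 223 CPM in ADISSP and 47.8, 40.9 and 54.1 CPM in Control (log2 fold change 2.34, SE 0.13, adjusted p = 9.48e-06). Ndufa1 of complex I and Atp5mf of complex V changed by 2.21 (SE 0.12) and 2.08 (SE 0.13).

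The balance of MT-encoded and nuclear-encoded subunits, as mean TPM (a level per gene length) of the MT-encoded subunits over that of the nuclear-encoded ones, differed between complexes. In complex I it was 56.4, 65.9 and 54.9 in ADISSP and 67.1, 56.2 and 53.1 in Control, which overlapped (exact permutation p = 0.9). In complex III it was 86.6, 97.8 and 88.7 in ADISSP and 129, 103 and 103 in Control, and in complex IV 24.2, 30.2 and 25.6 in ADISSP and 49.6, 41.7 and 36.7 in Control. Neither overlapped, and each had an exact permutation p of 0.1, or 0.133 adjusted over the 4 complexes. In complex IV the MT mean rests on mt-Co1, and with the median over subunits the log2 fold change of the ratio was 0.06 in place of -0.67. In complex V the ratio was 0.0841, 0.101 and 0.105 in ADISSP and 0.499, 0.290 and 0.301 in Control, below 1 in every library, with both MT subunits at the low levels given above.

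Genes that maintain, read and process the mitochondrial genome had medians of 0.31 to 0.73 by list, below those of the complexes, but single genes overlapped and the difference was not tested. Among all genes tested, 18.5% rose and 16.5% fell. For copying and upkeep of the DNA, 6 of 14 tested genes rose and 0 fell (median log2 fold change 0.31). Without Control 3, 6 rose and 3 fell (23.1% of all genes fell in that fit), and with library totals in place of TMM factors 4 rose and 3 fell (38.0% of all genes fell). The genes that rose included Twnk, the helicase, with 24.4, 22.4 and 24.2 CPM in ADISSP and 10.98, 11.05 and 11.59 CPM in Control (log2 fold change 1.08, SE 0.12, adjusted p = 0.000231), and Lonp1, a protease (1.11, SE 0.11). For transcription, 5 of 9 rose (median 0.57), and with library totals 3 of 9 rose and 2 fell. Polrmt, the RNA polymerase of mitochondria, had 45.2, 48.9 and 41.2 CPM in ADISSP and 20.4, 20.8 and 25.4 CPM in Control (log2 fold change 1.02, SE 0.12, adjusted p = 0.000438). Tfb2m, which opens the promoter with it, changed by 0.91 (SE 0.13) and Mrpl12 by 1.41 (SE 0.11). The 1 gene that fell was Mterf1a, named after its values were seen (log2 fold change -1.07, SE 0.36, adjusted p = 0.0463). It passed in 6 of 15 alternatives, with adjusted p between 1.66e-08 and 0.591, and has a close paralogue, Mterf1b, with which it could share reads.

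In the fit with TMM factors and all 6 libraries, 18.5% of all genes tested rose and 16.5% fell. For cutting, tailing and turnover of the transcripts, 13 of 21 rose and 0 fell (median 0.73). Lrpprc, which stabilises MT mRNAs, had 164, 167 and 142 CPM in ADISSP and 72.6, 64.5 and 68.3 CPM in Control (log2 fold change 1.20, SE 0.10, adjusted p = 5.39e-05). Tbrg4 changed by 1.34 (SE 0.09) and Grsf1, of the RNA granules, by 1.00 (SE 0.09). For rRNA modification, 5 of 10 rose (median 0.63), among them Mrm3 and Nsun4, and 3 of 10 without ADISSP 2, ADISSP 3, Control 1 or Control 2. For tRNA maturation, 4 of 13, or 30.8%, rose (median 0.31), among them Trit1, Mto1 and Pus1. For the synthetases that load amino acids onto the tRNAs, 16 of 20 rose (median 0.60), with Fars2 at 1.40 (SE 0.10) and Aars2 at 1.52 (SE 0.15). With TMM factors and all 6 libraries no gene of the cutting, modification, maturation and synthetase lists fell, though 1 synthetase was lower at an unadjusted p under 0.05, and DESeq2 called none lower. Without Control 3, 2 tRNA maturation genes and 1 synthetase fell, where 23.1% of all genes fell. With library totals in place of TMM factors, the median of all genes moved to -0.36, and 10.2% of all genes rose and 38.0% fell. There 1 of 10 rRNA modification genes, 2 of 13 tRNA maturation genes and 6 of 20 synthetases rose. Of these lists 0, 4 and 1 genes fell. Against Control 3 alone, the medians were 0.59 for rRNA modification, 0.27 for tRNA maturation and 0.72 for the synthetases. By limma on log2(TPM + 1), where 5.52% of all genes rose and 41.3% fell, the picture was mixed. There 4 of 14 upkeep genes rose and 4 fell, 3 of 9 transcription genes rose and 2 fell, and 6 of 21 cutting and turnover genes rose and 2 fell. Of the rRNA modification genes 1 of 10 rose and 1 fell, of the tRNA maturation genes 0 of 13 rose and 5 fell, and of the synthetases 6 of 20 rose and 1 fell.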

How the data were processed

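The deposited table of raw counts was made by the authors, who aligned reads with STAR to GRCm39 (mm39) and counted them with featureCounts, per the submitters' processing notes. No source used here states versions, the strand setting or the handling of reads with several matches. Per the labels, libraries came from total RNA depleted of ribosomal RNA with a KAPA kit, as biological triplicates of 1 batch. FPKM and TPM are the authors' deposited values for genes with at least 10 counts in all; FPKM entered no test. Every column was matched by its header, with 0 unmapped.

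Counts of all genes were filtered with filterByExpr, scaled with TMM factors and tested in edgeR 4.0.16 (R 4.3.3; robust quasi-likelihood, no covariate, Benjamini-Hochberg over 17320 genes); the SE is the log2 fold change over the square root of F. CPM use TMM-scaled totals, so their folds exceed those of FPKM, which use plain totals. Ratios within libraries were compared by exact two-sided permutation tests. A count of 0 allows up to 3 counts, or 0.192 to 0.290 per 1000000 of the plain total by library. On TMM-scaled totals this is at most 0.331 CPM in ADISSP and 0.205 CPM in Control. Intervals and floors cover counting error only. p-values measure the spread between these libraries.

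Copies were found with blastn 2.17.0 (at least 90% identity over 100 bases) among GENCODE M21 transcripts (GRCm38), used for sequence only; positions are those of the deposited tables (GRCm39). Named were all MT rows, the 3 members of each nuclear list with the smallest p, the first 3 markers per list where given, and the copies in the stretch with the most counts. Members and lists were chosen with earlier results of these data known. Alternatives used DESeq2 1.42.0 and limma 3.58.1 on log2(TPM + 1) and log2(TPM + 0.1). The test was tried on simulated data, where it recovered most of the larger changes and missed most of the smaller ones, so a row that did not pass may still differ.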

Additional observations from a re-analysis of the deposited data

How the results depend on the processing

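Of the tested MT rows, 12 to 13 were higher and 0 lower whichever library was left out (12.8% to 23.6% of all genes higher), and 12 were higher with library totals, with TMM factors from non-MT rows and with log2(TPM + 1); 11 were with log2(TPM + 0.1), where mt-Nd4l had an adjusted p of 0.0508. In the TPM fits 5.52% (+ 1) and 5.48% (+ 0.1) of all genes were higher and 41.3% and 40.7% lower. Without a count filter 14 rows were higher, the added ones being mt-Co3 and mt-Tp. Scaled to MT mRNA, 1 was higher and 6 lower, and this scale turned mt-Nd2 and mt-Co1 to -0.13, mt-Nd3 to -0.098, mt-Nd4l to -0.60, mt-Tp to -0.61, mt-Co3 to -1.22, mt-Tq to -1.13, mt-Rnr1 to -1.65 and mt-Tw to -1.62. On the TPM scales, where the median of all genes was -0.45 (+ 1) and -0.61 (+ 0.1), 1 row was lower: mt-Atp6 (-0.75 and -0.76, adjusted p = 0.0226 and 0.0246). There mt-Rnr1 was -0.54 and -0.55, mt-Tw -0.50 and -0.51, mt-Co3 -0.056 and -0.057 and mt-Tq -0.0094 and -0.010. Library totals turned mt-Rnr1 to -0.20 and mt-Tw to -0.26, and Control 3 alone turned mt-Rnr2 to 0.013. With a library left out, 4 rows that did not pass with TMM factors had no stable sign: mt-Rnr1 ranged over -0.28 to 0.48, mt-Rnr2 over -0.66 to 0.26, mt-Tw over -0.096 to 0.29 and mt-Atp6 over -0.44 to 0.023. The cause was not tested.

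As log2 folds, the MT share was 1.40 (1.29 to 1.51 with a library left out; 1.17 by summed TPM), the rRNA to mRNA ratio -1.84 (-2.15 to -1.55), the tRNA to mRNA ratio -0.49 (-0.58 to -0.36) and the - to + strand ratio 0.24 (0.16 to 0.30). The complex I ratio was 0.0096 (-0.072 to 0.11; -0.020 by the median over subunits and -0.019 by summed counts), so it had no stable sign. Complex III was -0.29 (-0.35 to -0.19), complex IV -0.67 (-0.78 to -0.56; 0.061 by the median) and complex V -1.87 (-2.01 to -1.62). Leaving out subunits with a near-identical copy gave 0.010, -0.29 and -0.68 in complexes I, III and IV. This alternative was added after the data were seen. Complex V gave no log2 fold there, since mt-Atp8 was at 0 in Control 3. Its ratio was 0.00242, 0.00689 and 0.00741 in ADISSP and 0.0477, 0.0195 and 0 in Control, which overlapped (exact permutation p = 0.4). The share of mt-Nd1 in MT mRNA differed by 0.00295 percentage points (-0.389 to 0.1997 with a library left out; -0.0294 by TPM), and that of mt-Nd3 by -0.000432 (-0.00125 to 0.000300).

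Replicate numbers did not pair the libraries: deviations of same-numbered libraries correlated at 0.03, 0.08 and 0.05. With the replicate block 12 MT rows were higher and 0 lower, and no MT call changed. With 3 libraries a group, no permutation test could pass 0.05. Low counts limit the tRNAs, mt-Atp8, mt-Nd3 and mt-Nd4l, and depletion limits the rRNAs.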
